A study of Homo sapiens with 6 samples.

Results

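The 10 genes described here encode ligands, receptors and regulators of the IL6 family of cytokines, together with the paired cytokines IL1A and IL1B. They are IL6, LIF, IL11, IL6ST, OSMR, LIFR, STAT3, SOCS3, IL1A and IL1B. They were taken by name, through every probe set that the platform annotation assigns to 1 of these symbols alone. That gave 33 of the 49293 non-control probe sets, and 10 of the 18132 genes with such a probe set. All 10 genes had at least 1.

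The cells were ARPE-19, an established human line of retinal pigment epithelium, kept in serum-containing medium. The SATalpha group received a plasmid that carries GFP and satellite alpha, a tandem repeat found at human centromeres, and the GFP group received the GFP plasmid, each at 2.5 µg per well of a 6-well plate. RNA of the whole well was hybridised to Affymetrix 3′ expression arrays, 3 per group, so cells that took up no plasmid were measured with the rest. The sources used here state neither the share of such cells nor the harvest time, and they do not say if replicate wells were independent cultures. The p-values below therefore reflect well-to-well spread, part of which may be technical.

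Cytokines of the IL6 family signal through a shared receptor chain, gp130, encoded by IL6ST. Each ligand brings gp130 together with a partner chain, and the kinases bound to these receptors then phosphorylate the transcription factor STAT3, which switches on its own inhibitor SOCS3 among other genes. IL1A and IL1B act on a different receptor, IL1R1, whose adaptor MYD88 leads to NF-kB, and IL1 is a known inducer of IL6, LIF and chemokines. Retinal pigment epithelial cells form the outer blood-retina barrier and are known to secrete IL6 and chemokines when stimulated by IL1.

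OSMR, the oncostatin M receptor chain, was higher with satellite alpha, and both IL1A and IL1B were lower. The ligands IL6, LIF and IL11, the shared chain IL6ST and STAT3 did not pass the test, and LIFR and SOCS3 lay below the level at which genes were tested. The test was limma on the deposited log2 levels with Benjamini-Hochberg adjustment over 10879 genes, each through its brightest probe set, after the dimmest 40% of genes were left out (a floor at a mean log2 level of 5.19). At an adjusted p of 0.05, 1 of the 8 tested members was higher, 2 were lower and 5 did not pass. That is 3 of 8 (37.5%), against 20.8% of all tested genes, 7.72% higher and 13.0% lower. One of these 3, IL1A, reached the floor only through the GFP arrays, where it was higher, so nothing is read from that share. A second fit took all 49293 probe sets with no filter. In it 1 of the 33 member probe sets was higher, 2 were lower and 30 did not pass, which is 9.09% against 8.36% of all probe sets, a share near the background (4.18% of all probe sets were higher and 4.19% lower). Throughout, a difference is SATalpha minus GFP on the log2 scale. In a whole-well sample, fewer cells that express a gene and less RNA of it per cell cannot be told apart.

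The sequences before the starts of 4 members are given here, because OSMR, IL1A and IL1B passed the test and IL6, the family's best known member, did not. Each holds 250 bases upstream of the most upstream start listed by RefSeq for the gene in GRCh38.p14, printed 5′ to 3′ on the gene's own strand. Capitals mark matches on either strand to 6 motifs: AP-1 (TGANTCA), STAT (TTCNNNGAA), C/EBP (TTGCNNAAT), the CRE core (TGACGTCA), the TATA box (TATAAA) and the kappa-B consensus. The OSMR window is chr5:38845762-38846011 on the plus strand, and the IL6 window is chr7:22726950-22727199 on the plus strand. The IL1A window is chr2:112784494-112784743 and the IL1B window is chr2:112836780-112837029, both on the minus strand.
OSMR: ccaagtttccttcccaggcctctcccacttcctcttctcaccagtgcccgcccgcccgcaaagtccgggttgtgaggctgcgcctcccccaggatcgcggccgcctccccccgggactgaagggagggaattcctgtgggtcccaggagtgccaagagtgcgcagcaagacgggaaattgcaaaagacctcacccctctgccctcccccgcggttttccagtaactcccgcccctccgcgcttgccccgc
IL1A: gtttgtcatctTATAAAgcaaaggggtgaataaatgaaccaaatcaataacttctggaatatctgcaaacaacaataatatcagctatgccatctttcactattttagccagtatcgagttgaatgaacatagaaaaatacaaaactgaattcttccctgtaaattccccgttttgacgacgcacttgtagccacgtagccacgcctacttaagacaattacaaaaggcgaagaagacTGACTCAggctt
IL1B: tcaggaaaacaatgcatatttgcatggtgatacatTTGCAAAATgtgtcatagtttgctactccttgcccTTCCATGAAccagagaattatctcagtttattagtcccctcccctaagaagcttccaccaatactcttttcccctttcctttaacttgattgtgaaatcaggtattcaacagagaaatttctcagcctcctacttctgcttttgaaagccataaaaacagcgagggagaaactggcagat
IL6: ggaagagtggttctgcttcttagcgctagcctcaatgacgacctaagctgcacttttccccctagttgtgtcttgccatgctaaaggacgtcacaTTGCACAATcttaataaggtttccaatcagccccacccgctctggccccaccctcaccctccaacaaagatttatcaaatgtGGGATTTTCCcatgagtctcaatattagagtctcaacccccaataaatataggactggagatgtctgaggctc
The OSMR window held no match to any of the 6. IL1A held an AP-1 match from 12 to 6 bases before the start and a TATA match from 239 to 234 bases before it. IL1B held a STAT match (180 to 172 bases before the start) and a C/EBP match (215 to 207 bases). IL6 held a C/EBP match (155 to 147 bases) and a kappa-B match (73 to 64 bases). No 2 of OSMR, IL1A and IL1B shared a motif. Among 27305 promoter windows of the same length, AP-1 was found in 6.57%, STAT in 6.76%, C/EBP in 2.46%, kappa-B in 9.58%, the CRE core in 1.75% and TATA in 11.2%. Of the 9 members with a listed promoter, AP-1, STAT, C/EBP and kappa-B each occurred in 2, TATA in 1 and the CRE core in 0. A match is a description of the letters in these windows and not a bound site.

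Among the ligands, IL6, which drives the acute-phase response through IL6R and gp130, read 8.27, 8.30 and 8.32 with satellite alpha and 8.19, 8.25 and 8.10 with GFP. The 3 SATalpha arrays lay above the 3 GFP arrays by a narrow margin. The difference was 0.12 (SE 0.05, limma adjusted p = 0.138), a 1.08-fold higher level that did not pass. The 95% confidence interval, which is not adjusted for the number of genes tested, was 0.0028 to 0.23. Its second, dim probe set read 3.78 to 4.28 with satellite alpha and 3.88 to 4.20 with GFP. The groups overlapped there and the difference was 0.06 (adjusted p = 0.875 in the probe-set fit).

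LIF, a ligand of LIFR and gp130 best known for keeping mouse stem cells undifferentiated, had 3 probe sets that did not point one way. The brightest read 8.68, 8.74 and 8.64 with satellite alpha and 8.84, 8.76 and 8.81 with GFP, a difference of -0.11 (SE 0.05, limma adjusted p = 0.110). The second read 6.77, 6.83 and 6.86 with satellite alpha and 6.72, 6.44 and 6.71 with GFP, a difference of 0.19 (adjusted p = 0.189 in the probe-set fit). The groups did not overlap in either, with satellite alpha below GFP in the first and above it in the second. The dimmest differed by 0.16 with overlapping groups, so the direction for LIF depends on the probe set, and none passed with equal weights. With array weights the brightest passed at gene level (-0.12, adjusted p = 0.0492, with 0.0492 to 0.427 over all alternatives).

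IL11, a gp130 ligand known for its part in fibrosis and in bone and platelet formation, read 6.58, 6.51 and 6.67 with satellite alpha and 6.29, 6.45 and 6.37 with GFP. All 3 SATalpha arrays stood above the GFP arrays. The difference of 0.22 (SE 0.08, limma adjusted p = 0.0569, 1.16-fold) missed the threshold. It passed under quantile normalization (adjusted p = 0.0374), with array weights (0.0232) and without SATalpha replicate 2 (0.0495), with adjusted p-values from 0.0232 to 0.250 over all alternatives. The other probe sets of IL11 differed by 0.09 and -0.0096, both with overlapping groups.

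**Figure D1:**
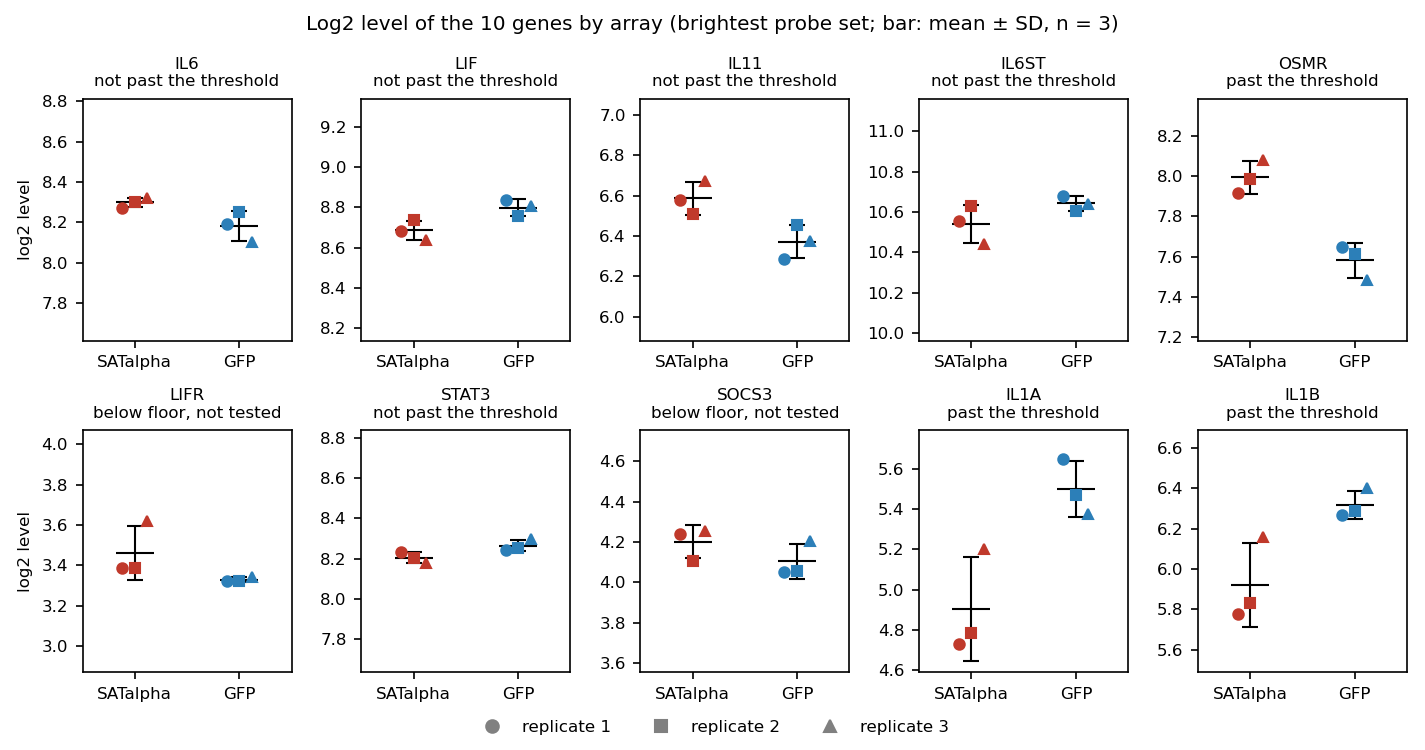
Log2 level (vertical axis, each panel spanning the same width of 1.2 log2 units) of the brightest probe set of each of the 10 genes in the 3 SATalpha arrays (red) and the 3 GFP arrays (blue), with the mean and SD (n = 3) in black. OSMR sits at 7.92 to 8.08 with satellite alpha and 7.48 to 7.65 with GFP, while IL1A and IL1B are lower with satellite alpha and the other panels differ by less.

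Among the receptors, OSMR pairs with gp130 to form the receptor of oncostatin M and with IL31RA to form that of IL31. It read 7.92, 7.98 and 8.08 with satellite alpha and 7.65, 7.61 and 7.48 with GFP. The groups were well apart, with a gap between the lowest SATalpha and the highest GFP array that exceeded the SD of either group. The mean was 7.99 ± 0.08 with satellite alpha and 7.58 ± 0.09 with GFP (SD, n = 3), a difference of 0.41 (SE 0.06, 95% confidence interval 0.28 to 0.55, limma adjusted p = 0.000501), or 1.33-fold. The call held whichever array was left out, with differences from 0.36 to 0.45.

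All 5 OSMR probe sets differed in the same direction, by 0.07 to 0.41, and the brightest alone passed in the probe-set fit (adjusted p = 0.00113). The probe set next in size read 5.56, 5.49 and 5.52 with satellite alpha and 5.21, 5.29 and 5.20 with GFP. Its groups did not overlap, and its difference of 0.29 missed the threshold narrowly (adjusted p = 0.0560). It passed in 2 of its 12 alternatives, with limma adjusted p-values from 0.0331 to 0.173 over all of them. A further probe set differed by 0.26 without overlap, and the remaining 2 differed by 0.10 and 0.07 with overlapping groups. As the mean of its 5 probe sets OSMR differed by 0.23 and still passed (limma adjusted p = 0.0134).

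IL6ST, the chain that every ligand above needs, had 8 probe sets, of which 5 differed upward and 3 downward, and none passed. The brightest read 10.55, 10.63 and 10.44 with satellite alpha and 10.68, 10.61 and 10.64 with GFP, a difference of -0.10 (SE 0.05, 95% confidence interval -0.20 to -0.0014, limma adjusted p = 0.142). SATalpha replicate 2 lay inside the GFP range. Without that array the difference was -0.15 and passed (adjusted p = 0.0378). The probe set with the greatest upward difference read 7.97, 7.83 and 7.57 with satellite alpha and 7.57, 7.63 and 7.36 with GFP, a difference of 0.27 (adjusted p = 0.0922 in the probe-set fit). It passed without SATalpha replicate 3 (0.38, adjusted p = 0.00787). With array weights it also passed (0.32, adjusted p = 0.0225). The IL6ST probe sets thus give no single direction.

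LIFR, the partner of gp130 for LIF, had 5 probe sets, all dim and all below the floor, with no array above 3.62. They differed by 0.05 to 0.29, and none passed (adjusted p = 0.184 to 0.884 in the probe-set fit). The files used here hold no detection call, so whether LIFR was expressed cannot be read from these levels.

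STAT3, the transcription factor that carries the signal of gp130 to the nucleus, read 8.23, 8.20 and 8.18 with satellite alpha and 8.24, 8.25 and 8.30 with GFP. The groups lay side by side without overlap, and the difference was -0.06 (SE 0.05, 95% confidence interval -0.16 to 0.05, limma adjusted p = 0.433). Another of its 3 probe sets pointed the other way, with 8.15, 8.07 and 8.16 with satellite alpha and 7.96, 8.01 and 7.91 with GFP, a difference of 0.17 (adjusted p = 0.0783 in the probe-set fit). Neither passed. SOCS3, which binds gp130 and blocks the kinases on it, lay below the floor. Its brighter probe set read 4.24, 4.11 and 4.26 with satellite alpha and 4.05, 4.06 and 4.20 with GFP, with overlapping groups and a difference of 0.10 (adjusted p = 0.673 in the probe-set fit). The dimmer one differed by -0.07.

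IL1A, a cytokine that is active in its precursor form and is released by damaged cells, read 4.73, 4.78 and 5.20 with satellite alpha and 5.65, 5.47 and 5.37 with GFP. Every SATalpha array lay below every GFP array, and SATalpha replicate 3 came closest to the GFP range. The mean was 4.91 ± 0.26 with satellite alpha and 5.50 ± 0.14 with GFP (SD, n = 3), a difference of -0.59 (SE 0.13, 95% confidence interval -0.86 to -0.32, limma adjusted p = 0.00469). The level with satellite alpha was thus 0.663 of that with GFP. IL1A entered the gene-level test by a small margin, with a mean of 5.20 over the 6 arrays against the floor of 5.19, which it reached through the GFP arrays. In the probe-set fit, which has no filter, it also passed (adjusted p = 0.00920). At gene level IL1A fell below the floor, and so was not tested, without GFP replicate 1, 2 or 3. The call in the probe-set fit was lost without SATalpha replicate 1 (-0.50, adjusted p = 0.0612) or GFP replicate 1 (-0.52, adjusted p = 0.0663).

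IL1B, whose precursor must be cut by caspase-1 before it is active, read 5.77, 5.83 and 6.16 with satellite alpha and 6.27, 6.29 and 6.40 with GFP. The groups did not overlap, and SATalpha replicate 3 was again the SATalpha array nearest to GFP. The mean was 5.92 ± 0.21 with satellite alpha and 6.32 ± 0.07 with GFP (SD, n = 3), a difference of -0.40 (SE 0.10, 95% confidence interval -0.61 to -0.18, limma adjusted p = 0.0120), or 0.760 of the GFP level. The call was lost without SATalpha replicate 1 (-0.32, adjusted p = 0.0656). In the probe-set fit IL1B passed with all arrays (adjusted p = 0.0240), but of the 6 fits with 1 array left out it passed in 1, the one without SATalpha replicate 3 (-0.51). IL1A and IL1B each have 1 probe set, so no second probe set was available to set beside either.

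**Figure D2:**
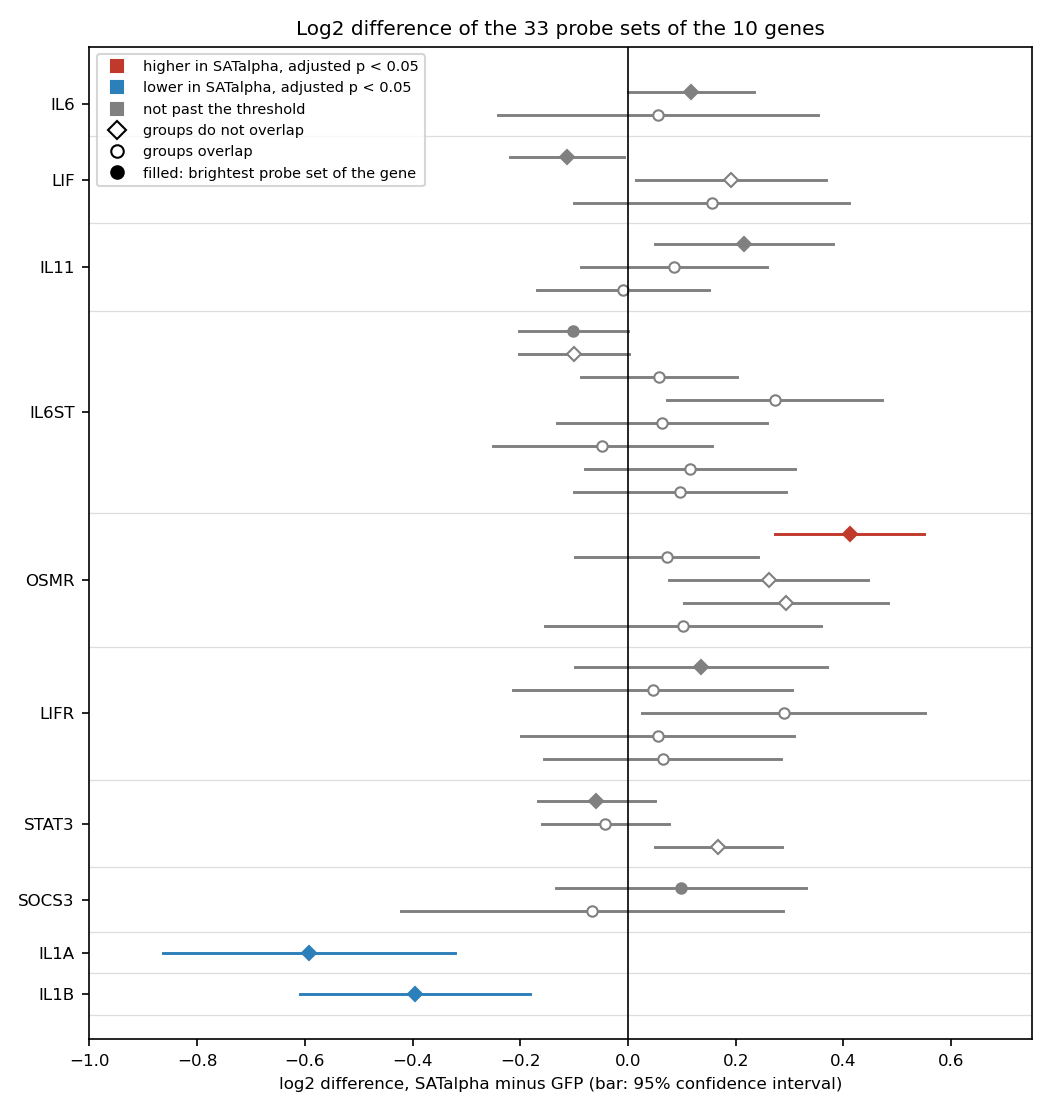
Log2 difference, SATalpha minus GFP (horizontal axis, with 95% confidence intervals from the fit over all 49293 probe sets), for the 33 probe sets of the 10 genes, ordered within a gene by brightness. Colour marks the 1 higher and 2 lower probe sets past the threshold, diamonds mark the 13 whose groups do not overlap, and filled symbols mark the brightest probe set of a gene.

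Over the 33 probe sets the median difference was 0.07, against -0.00029 over all probe sets. In 13 of them (39.4%) the SATalpha and GFP arrays did not overlap, with satellite alpha above in 8 and below in 5, against 26.0% of all probe sets (12.6% above and 13.4% below). Over the 8 tested genes the median difference was -0.08, against -0.02 over all tested genes. The groups did not overlap in 7 of these 8, against 37.6% of tested genes (14.4% with satellite alpha higher and 23.2% lower). IL1A is among the 7 and reached the floor only through the GFP arrays, so nothing is read from this share or from the gene median. Members enter the probe-set figures with 1 to 8 probe sets each, which share a transcript and are not independent.

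**Figure D3:**
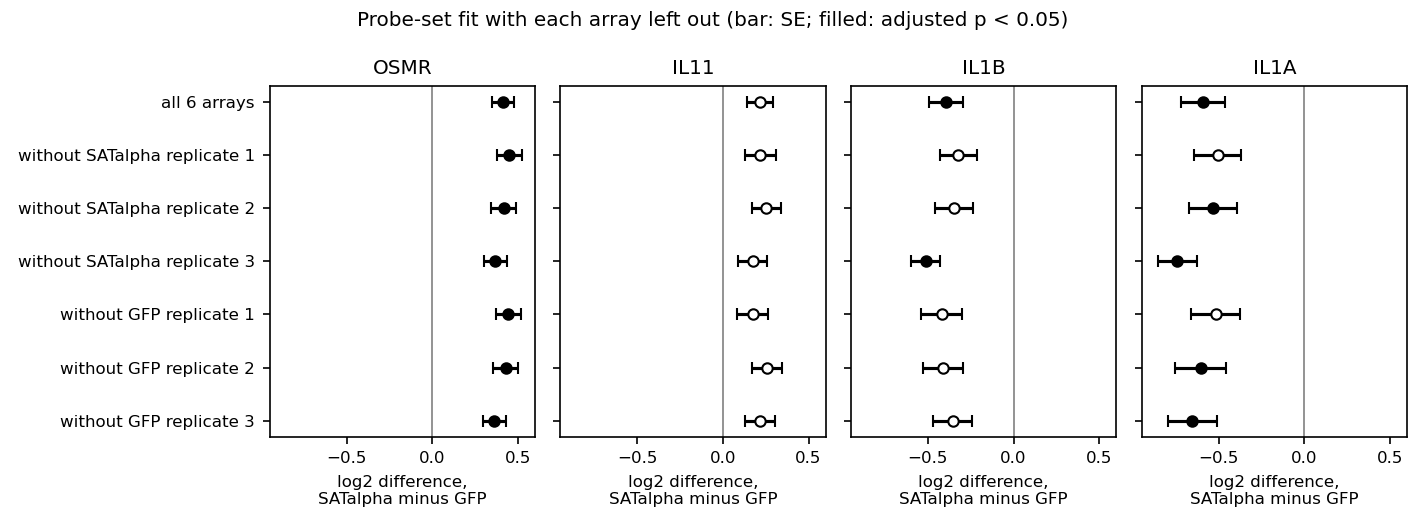
Log2 difference, SATalpha minus GFP (horizontal axis, bars are SE), of the brightest probe sets of OSMR, IL11, IL1B and IL1A in the probe-set fit with all 6 arrays and with each array left out in turn, and filled where the adjusted p was under 0.05. OSMR stays filled in all 7 fits and IL1B in 2, while the sign of each of the 4 genes is the same throughout.

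Arrays were alike in overall level and in measures of RNA quality. Their medians lay between 5.29 and 5.31, and the 3′ to 5′ difference of the GAPDH control was 0.393 ± 0.068 with satellite alpha and 0.393 ± 0.046 with GFP (SD, n = 3, exact permutation p = 1, where 0.1 is the smallest this design allows). That of the actin control was larger, at 2.01 ± 0.13 with satellite alpha and 2.06 ± 0.07 with GFP (exact permutation p = 0.6). Markers of retinal pigment epithelium were partly low: RPE65, RLBP1 and BEST1, which mark the mature tissue, lay below the floor, whereas the epithelial keratins KRT8 and KRT18 were bright. Of 6 tested markers 2 were lower, KRT8 (a difference of -0.13) and KRT18 (-0.21), against 13.0% of all tested genes. In the probe-set fit that KRT8 probe set did not pass (adjusted p = 0.0510), and another of the 8 for KRT8 was higher (0.30, adjusted p = 0.0260). The summed log2 level of the 9 markers was 65.5 to 65.9 with satellite alpha and 66.1 to 66.9 with GFP, and the part of this in the results above was not tested. Leukocytes are a rich source of IL1 in tissue. Of their 10 markers 4 were tested and 0 passed by limma (0 also at an unadjusted p under 0.05). The summed level was 47.1 to 47.3 with satellite alpha and 47.0 to 47.8 with GFP. The other 6, among them PTPRC and CD14, lay below the floor. The 4 tested had mean log2 levels over the 6 arrays of 8.22 for CD68, 6.12 for TYROBP, 5.96 for CD79A and 5.43 for CSF1R. PTPRC had a mean log2 level of 2.30 with satellite alpha and 2.44 with GFP, and CD14 one of 3.60 with satellite alpha and 3.54 with GFP. None of 2 tested markers of fibroblasts and endothelium passed by limma, with 0 at an unadjusted p under 0.05. The sources used here name no batch, and a batch effect was not tested.

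The lists of the wider IL6 family include members described above. Their tested genes that are not members differed by -0.02 to 0.13, and none of those passed by limma. Of 11 listed ligands 4 were tested and none passed by limma, where 3 (IL6, LIF and IL11) had an unadjusted p under 0.05. The remaining one was cardiotrophin CTF1 at a difference of -0.0076. Oncostatin M itself (OSM), a ligand of OSMR, lay below the floor with a mean log2 level of 5.10 with satellite alpha and 4.95 with GFP. IL6R, the partner of gp130 for IL6, lay below it too, at 4.51 with satellite alpha and 4.50 with GFP. Of 10 receptors and sheddases 6 were tested, and OSMR alone passed (7.72% of all tested genes were higher). ADAM17, the protease that sheds IL6R from the cell surface, differed by 0.13 (limma adjusted p = 0.0936). All 4 of its probe sets differed upward, and a dim one passed in the probe-set fit (0.40, adjusted p = 0.0359).

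Among 8 tested transducers of JAK-STAT signalling 1 was lower while 7 stayed short of the threshold (median -0.06). Of all tested genes 13.0% were lower. TYK2, one of the kinases bound to gp130, read 7.27, 7.18 and 7.38 with satellite alpha and 7.61, 7.41 and 7.55 with GFP, a difference of -0.25 (SE 0.07, limma adjusted p = 0.0241). The groups did not overlap, but the call was lost in 4 of the 6 fits with an array left out (-0.20 to -0.25), namely without SATalpha replicate 1 or 2 or GFP replicate 1 or 3. JAK1, the main kinase of gp130, differed by -0.06 (adjusted p = 0.428).

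The inhibitors of this pathway held the greatest difference among all tested genes of the lists. SOCS2, best known for restraining growth hormone signalling through STAT5, read 7.03, 7.12 and 7.18 with satellite alpha and 8.10, 8.21 and 8.06 with GFP. The groups were far apart, and the level with satellite alpha was 0.494 of that with GFP, a difference of -1.02 (SE 0.06, limma adjusted p = 1.12e-07). Its other probe set fell by 0.92 and passed as well. SOCS6, which has been tied to insulin and KIT receptor signalling, rose by 0.44 (adjusted p = 0.000715) where it was brightest, but its second probe set was at -0.08, and as their mean it did not pass (0.18, adjusted p = 0.0633). PTPN1, a phosphatase of JAK2 and TYK2, was lower by a difference of -0.19 (adjusted p = 0.0147), and no longer passed without SATalpha replicate 1 or GFP replicate 1 or 2 (-0.17, -0.19 and -0.17), and as the mean of both its probe sets (-0.13, adjusted p = 0.169). Of 11 tested inhibitors 1 was higher, 2 were lower and 8 stayed short of the threshold (median -0.02). Of all tested genes 7.72% were higher and 13.0% lower. SOCS4, among the 8, differed by 0.12 at gene level (limma adjusted p = 0.146), but its dimmer probe sets were higher in the probe-set fit. They differed by 0.44, 0.54 and 0.89 (adjusted p = 0.0411, 0.00466 and 0.000461). CISH and SOCS1, both induced by STAT proteins, lay below the floor. In the probe-set fit CISH was lower (-0.38, adjusted p = 0.0478), and the brighter SOCS1 probe set differed by 0.28 without passing (adjusted p = 0.205).

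Genes described in the literature as STAT3 targets moved both ways. Of 29 listed 18 were tested, of which 5 were higher, 2 lower and 11 not past the threshold, with a median of 0.04. The shares over all tested genes were 7.72% higher and 13.0% lower. PIM1, a survival kinase, read 7.97, 8.03 and 8.16 with satellite alpha and 7.65, 7.66 and 7.60 with GFP, a difference of 0.42 (SE 0.06, limma adjusted p = 0.000291), and 0.38 to 0.46 was the range over its 3 other probe sets, of which 1 passed in the probe-set fit. Its relative PIM3 went the other way, with 8.45, 8.68 and 8.45 with satellite alpha and 9.04, 8.95 and 9.15 with GFP, a difference of -0.52 (SE 0.07, adjusted p = 0.000110). The groups of each kinase were clearly separate. CCND1, the G1 cyclin D1, rose by 0.30 (adjusted p = 0.000136), with 0.18 to 0.42 in its other probe sets. The members OSMR, IL6ST, STAT3 and SOCS3 are themselves on this list, and OSMR is among the 5 that were higher. The acute-phase genes SAA1 and SAA2 lay below the floor.

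On the IL1 side, of 11 listed ligands and antagonists 3 were tested, and IL1A and IL1B were the 2 that fell. Of all tested genes 13.0% were lower. Both are members described above, and IL1A reached the floor only through the GFP arrays, so nothing is read from this share. IL18, another cytokine that caspase-1 cuts, differed by 0.09 (limma adjusted p = 0.657). IL1RN, the natural antagonist of the IL1 receptor, and IL33 lay below the floor. IL1RL1, the receptor of IL33, lay below it too and was lower in the probe-set fit in its brightest probe set and in one with identical values (-0.50, adjusted p = 0.0349), but not in its 3 others (-0.25 to 0.07). None of the 3 tested receptors passed by limma, where each also had an unadjusted p above 0.05. IL1RAP, the shared second chain of the IL1 receptor, differed by -0.13 (adjusted p = 0.236) and passed with array weights (-0.19, adjusted p = 0.0281, with 0.0281 to 0.698 over all alternatives), and the inhibitory receptor SIGIRR differed by -0.08.

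CASP1, the protease that matures IL1B, was higher while IL1B was lower. It read 7.76, 7.70 and 7.88 with satellite alpha and 7.47, 7.28 and 7.37 with GFP, a difference of 0.41 (SE 0.07, limma adjusted p = 0.000823), or 1.32-fold. The groups did not overlap, and 6 of its 8 other probe sets were also higher in the probe-set fit, by up to 0.64. NLRP1, an inflammasome sensor, had a difference of -0.40 (adjusted p = 0.0294) at gene level, but did not pass in the probe-set fit (adjusted p = 0.0542). Its mean log2 level was 5.09 with satellite alpha and 5.48 with GFP, so, like IL1A, it reached the floor of 5.19 only through the GFP arrays. Its other probe sets were at -0.02 and 0.08, and the gene-level call was lost without SATalpha replicate 1 or 3 or GFP replicate 2 or 3 (-0.42, -0.28, -0.32 and -0.41). Of the 11 tested genes of IL1 processing and release 1 was higher, 1 lower and 9 short of the threshold (median -0.0043). Among all tested genes 7.72% were higher and 13.0% lower. The 1 lower gene is NLRP1, so nothing is read from the lower share. None of 13 tested adaptors and kinases of the IL1 receptor passed by limma, where 2 had an unadjusted p under 0.05. The brightest of them, TAB2 and IRAK1, which pass the signal from the receptor to NF-kB, differed by -0.08 and 0.04, and the other TAB2 probe sets differed by 0.06 to 0.18. A dimmer probe set of TAB3 was higher in the probe-set fit (0.37, adjusted p = 0.0146). The other TAB3 probe sets, its brightest among them, lay between -0.18 and 0.07 and did not pass.

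IL1-inducible genes that passed lay in both directions, on a list that also holds the members IL6, LIF and IL11. Of 21 tested 5 were higher, 2 lower and 14 short of the threshold (median 0.07), against 7.72% higher and 13.0% lower of all tested genes. NFKBIZ, an atypical I-kappa-B protein needed for induction of IL6 in mouse macrophages, read 7.79, 7.77 and 7.85 with satellite alpha and 7.25, 7.33 and 7.21 with GFP, a difference of 0.54 (SE 0.06, limma adjusted p = 2.83e-05). TNFAIP3, a deubiquitinase that restrains NF-kB, read 9.54, 9.60 and 9.39 with satellite alpha and 9.97, 9.93 and 9.94 with GFP, a difference of -0.44 (SE 0.05, adjusted p = 5.94e-05). Both were separate between groups, in opposite directions. PTGES, the prostaglandin E synthase, rose by 0.20 (adjusted p = 0.00703) and the chemokine CCL20 by 0.62 (adjusted p = 0.000215). TNFAIP6, a secreted hyaluronan-binding protein, lay below the floor at gene level and was higher in the probe-set fit (0.68, adjusted p = 0.00191).

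Proteins that set the lifetime of cytokine mRNA included genes that passed in each direction. All 12 listed were tested, of which 4 were higher, 2 lower and 6 short of the threshold (median 0.04). Over all tested genes the shares were 7.72% higher and 13.0% lower. ZFP36L1, of the tristetraprolin family that binds AU-rich elements and speeds decay, read 12.14, 12.15 and 12.14 with satellite alpha and 11.70, 11.75 and 11.69 with GFP, a difference of 0.42 (SE 0.03, limma adjusted p = 8.11e-07). Its 5 other probe sets all passed too, with differences of 0.36 to 1.20. The related ZFP36L2 was higher by 0.29 (adjusted p = 0.0124), although 2 of its 3 other probe sets did not pass, and without probe sets that can match several transcripts it did not pass (0.09, adjusted p = 0.620). ZC3H12A, the nuclease regnase-1 that degrades IL6 mRNA, read 6.30, 6.27 and 6.39 with satellite alpha and 6.06, 6.08 and 5.94 with GFP, a difference of 0.29 (adjusted p = 0.0159). The ZFP36L2 and ZC3H12A calls were lost without GFP replicate 3 (0.24 and 0.25). ELAVL1, the HuR protein that stabilises such mRNA, fell by 0.19 (adjusted p = 0.00725), but the 4 others lay between -0.11 and 0.0086 and their mean with it did not pass (-0.10, adjusted p = 0.262).

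**Figure D4:**
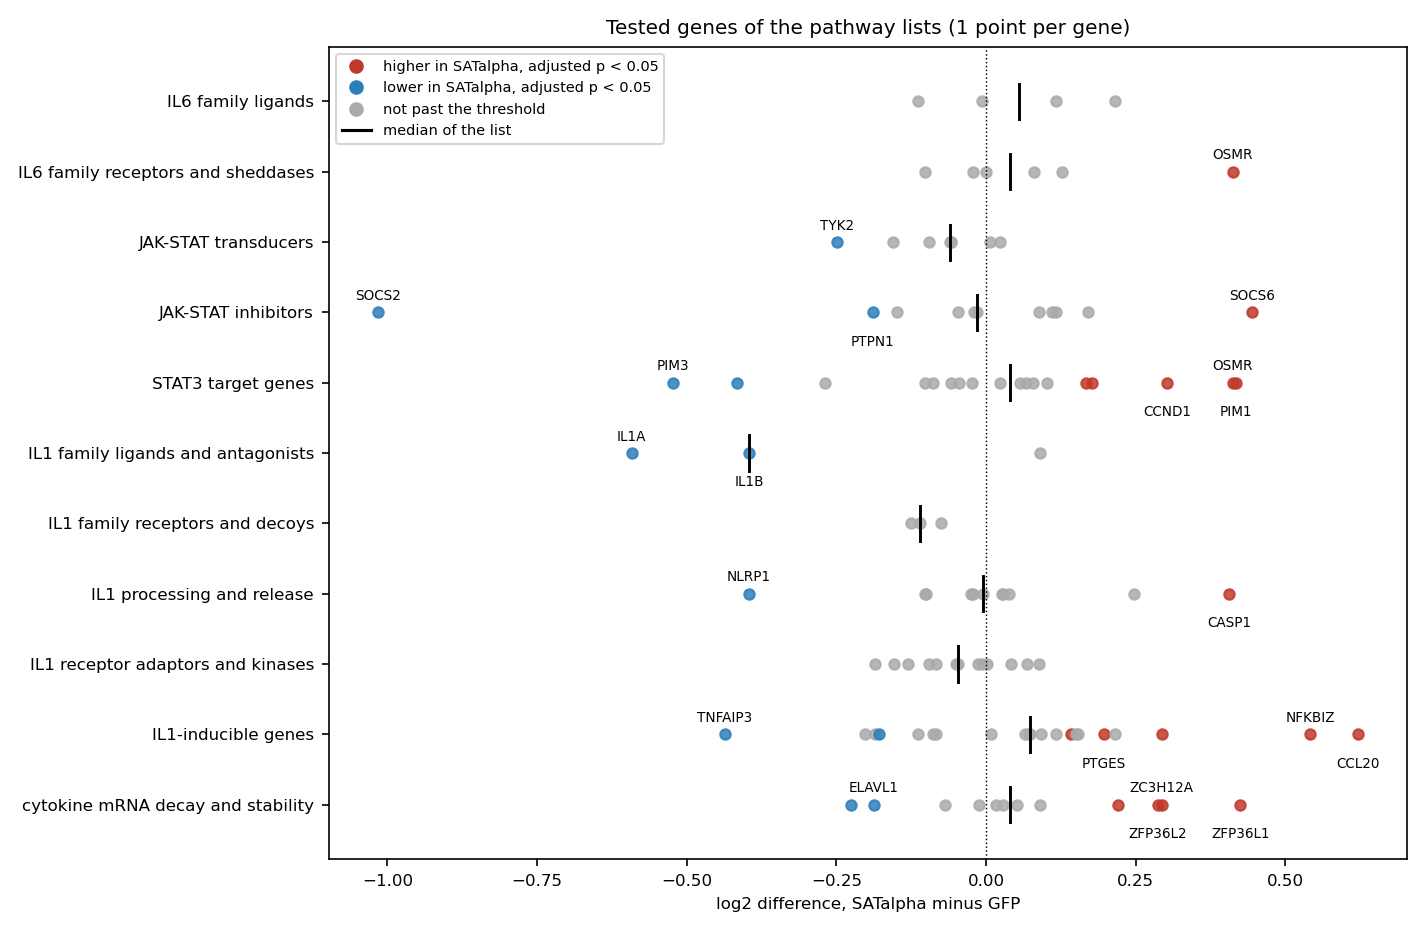
Log2 difference, SATalpha minus GFP (horizontal axis), of the tested genes of 11 pathway lists (rows), 1 point per gene, with the median of each list as a black bar. Called genes lie on both sides of 0 in the lists of inhibitors, STAT3 targets, IL1 processing, IL1-inducible genes and mRNA decay. In IL1 processing the lower one is NLRP1, which reached the floor only through the GFP arrays. SOCS2 at -1.02 lies farthest from 0.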

How the data were processed

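Total RNA of 6 wells was labelled and hybridised to Affymetrix 3′ expression arrays. The deposited values are log2 levels per probe set, already normalized between arrays by the authors, with base 2 read from their range. Both MAS5 and RMA appear, without roles, in the submitters' processing notes. The software version and background setting are unknown here. Where RMA was used, it can compress differences of dim probe sets. The table held 49372 probe sets, 79 of them controls. Symbols were read from GEO's platform annotation (44988 probe sets with 1 symbol, 1832 with several and 2473 not listed), and 0 symbols needed an update. Depth does not apply to arrays: the number of arrays limits the precision, with a median SE of 0.06.

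Groups were compared with limma 3.58.1 in R 4.3.3 (lmFit, eBayes with a mean-variance trend), and standard errors are its moderated ones. Confidence intervals are not adjusted for the number of features tested, so an interval can exclude 0 where the adjusted p does not pass. The threshold was an adjusted p of 0.05 over all tested features. Tested on simulated data with the same 10879 genes and groups, the fit recovered 43.6% of genes changed by 1.2-fold, 88.4% by 1.5-fold and 99% by 2-fold. Named genes were all members, and from each pathway list up to 4 genes past the threshold by smallest p, or 2 by brightness where none passed. Other genes named were chosen after their values were seen: JAK1, ADAM17, CTF1, IL18, OSM, IL6R, CISH, SOCS1, SOCS4, SAA1, SAA2, IL1RN, IL33, IL1RL1, TAB3, TNFAIP6 and the cell type markers. The members, lists and alternatives were chosen with earlier results of these data known. Some genes of the pathway lists were not analysed here. The alternatives were other filters, quantile normalization, median centring, other choices of probe set, a replicate block, each array left out, no trend and array weights. Promoter sequences are RefSeq's for GRCh38.p14, matched for 9 of 10 members, with LIF unmatched.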

Additional observations from a re-analysis of the deposited data

How the results depend on the processing

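Over 62 single values and their alternatives, 736 of 800 fits kept direction and side of the threshold, 30 lost the call, 12 gained it and 22 changed sign. Of the last, 1 was past the threshold with all arrays (NLRP1, 0.0759 without multi-transcript probe sets, those that can match more than 1 transcript). The count of tested genes past the threshold, 840 higher and 1419 lower, was 220 and 261 without multi-transcript probe sets, which leaves fewer genes. With a replicate block it was 483 and 817. Same-numbered arrays did not deviate together (0 of 3 pairs correlated above 0.1, and 0 arrays correlated best with their own number). These correlations thus showed no pairing by number. With 3 arrays per group they cannot exclude that wells of 1 number were handled together. With an array left out the counts ran from 477 to 899 higher and from 732 to 1628 lower, lowest without GFP replicate 1. Without SATalpha replicate 1 they were 504 and 895, and without GFP replicate 2 there were 900 lower.

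Member genes past the threshold, 1 higher and 2 lower, became 2 higher under quantile normalization and 2 higher and 3 lower with array weights, which added IL11 and LIF. They became 0 lower with the dimmest 60% of genes removed, which took IL1A and IL1B out of the test. With an array left out they ran from 1 to 2 higher and from 1 to 3 lower, and without GFP replicate 1, 2 or 3 IL1A fell below the floor. Member probe sets past the threshold, 1 higher and 2 lower, became 2 higher without the lowest 40% of probe sets, 2 with quantile normalization, 2 with a replicate block and 3 with array weights. They became 0 lower with no mean-variance trend, and with an array left out ran from 1 to 2 higher and from 0 to 2 lower. The cause of these changes was not tested.

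As the mean of all probe sets LIF, IL6ST, STAT3 and TAB2 were at 0.0779, 0.0443, 0.0223 and 0.0603. Without multi-transcript probe sets LIF was at 0.192 and TAB2 at 0.175. Dim or weakly differing probe sets crossed 0 with an array left out, over ranges of -0.0576 to 0.194 for the dimmer of the 2 IL6 probe sets, -0.0405 to 0.0237 for the dimmest of IL11, -0.00117 to 0.106, -0.0106 to 0.179 and -0.145 to 0.0323 for 3 of IL6ST, -0.072 to 0.131, -0.0636 to 0.143 and -0.00944 to 0.111 for 3 of LIFR, and -0.285 to 0.127 for the dimmer of SOCS3. With array weights that dim IL6 probe set was at -0.0194 and 1 of the 5 LIFR probe sets at -0.000872. With a replicate block PTPN1, ZFP36L2 and ZC3H12A lost the call (adjusted p = 0.0509, 0.0521 and 0.0581), and the IL6ST probe set at 0.27 gained it (adjusted p = 0.0496).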
